A study of Homo sapiens with 4 samples.

Results

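Immediate early genes were examined in darolutamide-resistant prostate cancer cells with and without knockdown of LOC730101. The 10 genes were taken by name from the deposited count table, which lists 60606 genes, and all 10 were found: FOS, FOSB and FOSL2, JUN, JUNB and JUND, EGR1, IER2, KLF6 and DUSP1. RNA was sequenced from LNCaP-DaroR cells (DaroR), a derivative of the prostate cancer line LNCaP that had been kept in darolutamide until resistant. The medium of both groups was RPMI1640 containing FBS (10%), and both were transfected, the 2 siControl libraries with control siRNA and the 2 siLOC730101 libraries with an siRNA pool targeting LOC730101. DaroR cells are kept in darolutamide in the study, so both groups share that drug. All 4 libraries come from a single resistant line, no untransfected group was analysed here, and the time between transfection or feeding and harvest is not given in the sources used here.

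Immediate early genes are transcribed within minutes of a stimulus such as serum, a growth factor or stress, from factors already present in the cell, and most of their mRNAs decay quickly. The ERK, JNK and p38 kinases act on transcription factors bound at their promoters, such as SRF with its ELK partners at the CArG box and CREB at the sequence TGACGTCA or its shorter form TGACG. FOS and JUN proteins pair to form AP-1, which binds TGACTCA or TGAGTCA. EGR1 is a zinc finger activator, KLF6 is a Krüppel-like transcription factor, IER2 is a nuclear protein induced by growth factors, and DUSP1 is a phosphatase that switches the MAP kinases off again.

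The start regions of the genes are shown first, and their relation to the levels below was not tested. Promoter windows from RefSeq (GRCh38.p14) reaching 250 bases before and 50 bases after the start were found for all 10 genes and compared with 35116 windows in the same table. TGACG was present on one strand or the other in 9 of the 10 windows, KLF6 being the exception, and in 24.6% of all windows. The CArG box was present in EGR1 alone of the 10 windows and in 1.29% of all windows. Sites further than 250 bases before the start were not searched, so a gene without a match may hold one there. TGACGTCA, which contains TGACG on both strands, was present in JUND and DUSP1 and in 1.85% of all windows. TATAAA was present in FOS, FOSB, JUNB and DUSP1 and in 11.5% of all windows. TGACTCA or TGAGTCA was present in FOSL2 and in 4.95% of all windows, and CCGGAA, the core bound by ELK factors, was present in FOSB and IER2 and in 17.2% of all windows. These matches are letters in a window and not measured binding.

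Windows of 80 bases are printed 5′ to 3′ on the strand of the gene for FOS, FOSB and EGR1, which had the lowest levels, for JUND, which had the highest, and for DUSP1, which shares TGACGTCA with JUND. They lie at chr14:75278748-75278827 (plus strand) for FOS, chr19:45467916-45467995 (plus strand) for FOSB, chr5:138465359-138465438 (plus strand) for EGR1, chr19:18281763-18281842 (minus strand) for JUND and chr5:172771256-172771335 (minus strand) for DUSP1. Capitals mark the CArG box, TGACGTCA, TGACG on either strand and TATAAA.
FOS: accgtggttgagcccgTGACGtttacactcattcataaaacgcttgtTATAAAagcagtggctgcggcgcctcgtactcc
FOSB: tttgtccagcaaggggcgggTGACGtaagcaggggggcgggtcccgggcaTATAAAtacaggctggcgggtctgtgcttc
EGR1: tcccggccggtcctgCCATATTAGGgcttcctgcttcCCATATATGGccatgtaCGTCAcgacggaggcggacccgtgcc
JUND: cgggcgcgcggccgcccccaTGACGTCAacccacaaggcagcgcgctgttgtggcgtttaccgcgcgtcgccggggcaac
DUSP1: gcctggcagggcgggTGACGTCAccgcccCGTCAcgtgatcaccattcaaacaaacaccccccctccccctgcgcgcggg

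The libraries held between 39213498 and 53368158 counts, and the siLOC730101 libraries together held 80.4% of the siControl total. Counts of LOC730101 (listed as ENSG00000216775) were 2560 and 2370 in siControl against 633 and 680 in siLOC730101, and its log2 fold change (LFC, siLOC730101 against siControl) was -1.56 (SE 0.12, adjusted p = 4.34e-06, edgeR). All 8 prostate luminal markers examined, among them KLK2, KLK3 and TMPRSS2, were at 334.4 CPM or more in every library. KRT5 and TP63 of basal cells, COL1A2 and LUM of stroma, CDH5 of endothelium, PTPRC and CD3E of leukocytes and CHGA and INSM1 of neuroendocrine cells had 0 counts in all 4 libraries, and 10 of the 21 markers of these cell types had more than 3 counts in a library. Of the neuroendocrine markers SYP and ENO2 were detected, with 56.3 to 67.0 CPM for the 4 together, and the other types summed to at most 18.0 CPM each. Counts were scaled by TMM and tested with the quasi-likelihood test of edgeR over 19349 genes, and p-values were adjusted by Benjamini-Hochberg across all of these genes. In bulk RNA, fewer cells expressing a gene and less RNA per cell cannot be told apart.

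The immediate early genes spanned more than 3 orders of magnitude in these cells, and AP-1 transcripts were mostly JUND. Levels between genes are given as normalized CPM per kilobase of exon, the mean and SD over the 4 libraries. JUND stood at 103.8 ± 18.8 (SD, n = 4), above 98.5% of the genes tested, and FOS at 0.0923 ± 0.0518 (SD, n = 4), above 5.54% of them. The ratio of these means was 1125.

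Between these ends lay JUN at 28.3 ± 1.58, DUSP1 at 15.4 ± 1.18, JUNB at 14.1 ± 1.85 and FOSL2 at 8.53 ± 0.590 CPM per kilobase (SD, n = 4). IER2 followed at 5.28 ± 0.434 and KLF6 at 4.46 ± 0.183. A gap of 11.5-fold then separated KLF6 from EGR1, which was at 0.387 ± 0.0499, and FOSB was at 0.228 ± 0.0882. Of the 9 neighbouring pairs in this order, 6 had ranges that did not overlap. DUSP1 and JUNB, EGR1 and FOSB, and FOSB and FOS overlapped in their ranges over the libraries. Within each library DUSP1 lay above JUNB and FOSB above FOS in 4 of 4 cases, and EGR1 lay above FOSB in 3 of 4, all but siLOC730101 replicate 1. With the longest annotated transcript in place of the exon length of the table, IER2 and KLF6 changed places and the other genes kept their rank. Of the exon bases, 14.2% in JUNB and 52.2% in IER2 are shared with genes on the other strand. Reads there could not be assigned, while the levels divide by the full exon length. The places of JUNB and IER2 against their neighbours are therefore uncertain.

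**Figure D1:**
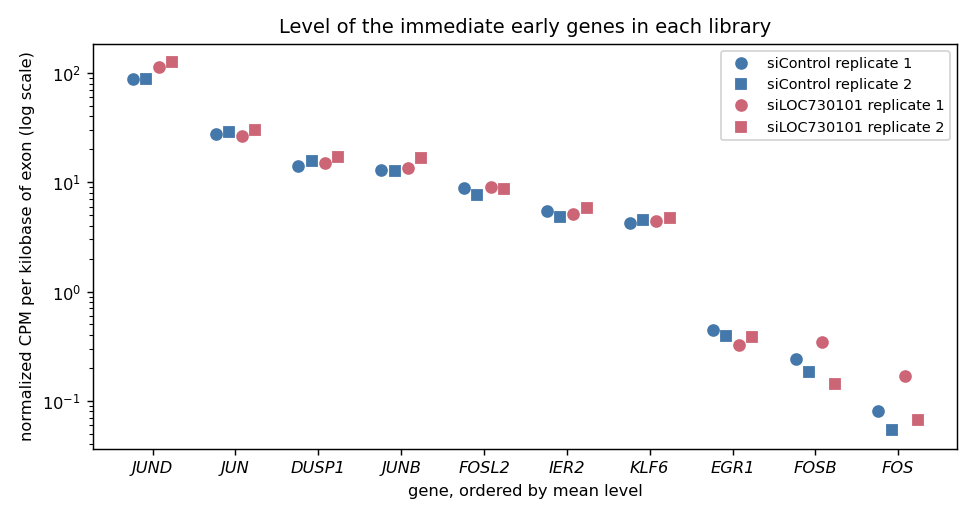
Normalized CPM per kilobase of exon (log scale) of the 10 genes in each of the 4 libraries, with circles for replicate 1 and squares for replicate 2. JUND lies highest, between 87.8 and 125.0, and EGR1, FOSB and FOS lie below 0.5 in every library.

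FOS, the founding member of the AP-1 genes, was barely detected. Its counts were 14 and 8 in siControl against 22 and 8 in siLOC730101, where JUN had 3936 to 5402 in each library. FOSB was counted 72 and 48 times in siControl against 79 and 30 times in siLOC730101. EGR1 was counted 76 and 57 times in siControl against 42 and 46 times in siLOC730101. All 3 genes were above 3 counts in every library, and the cells had been grown with serum.

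The summed level of the FOS family, with FOSL1 added to the 3 FOS genes above, was 9.29 and 7.995 CPM per kilobase in siControl and 9.60 and 9.13 in siLOC730101. FOSL2, which forms AP-1 with JUN proteins but lacks the strong activation domain of FOS, made up 93.6% to 95.9% of that sum. FOS itself made up 0.671% to 1.75% of it. The JUN family summed to 128.7 and 129.7 CPM per kilobase in siControl and to 154.2 and 171.8 in siLOC730101. JUN family transcripts were therefore 13.8 to 18.8 times as abundant per kilobase as FOS family transcripts.

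**Figure D2:**
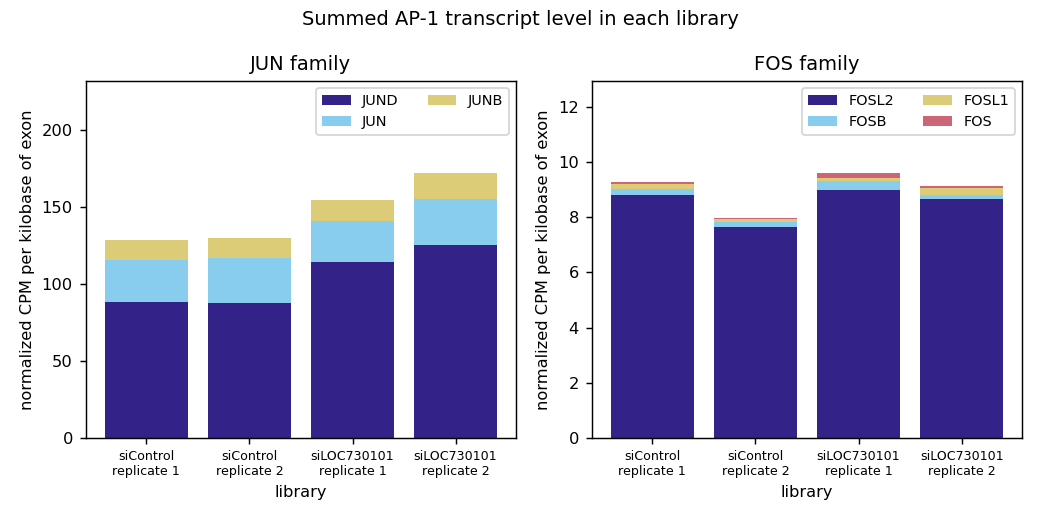
Stacked normalized CPM per kilobase of exon of the JUN family (left) and the FOS family (right) in each library. The bars of the JUN family reach 128.7 and 129.7 in siControl and 154.2 and 171.8 in siLOC730101, with JUND as the largest segment, and those of the FOS family stay between 7.995 and 9.60, nearly all of it FOSL2.

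After siLOC730101, JUND rose and none of the other 9 immediate early genes passed the test. All 10 genes passed the expression filter of edgeR. Of these, 1 gene had an adjusted p under 0.05 and the same gene was the only one with an unadjusted p under 0.05. Over all genes tested, 0.284% had an adjusted p under 0.05 in either direction, 0.212% had one and were higher, and 10.8% had an unadjusted p under 0.05. DESeq2 gave an adjusted p for 7 of the 10 genes and also called JUND alone, where it called 3.12% of the genes it adjusted. The median LFC of the 10 genes was 0.10, and it was -0.0021 over all genes tested.

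JUND, the JUN protein that is present in resting cells and less dependent on a stimulus, is encoded at chr19:18279694-18281622 (minus strand, hg38, as are the positions that follow). Its counts were 9188 and 7926 in siControl against 9052 and 9158 in siLOC730101. Its normalized CPM was 170.0 and 169.3 in siControl and 220.3 and 241.2 in siLOC730101. Both siLOC730101 libraries lay above both siControl libraries. The LFC was 0.44 (SE 0.077, adjusted p = 0.0187, edgeR), which is 1.36-fold with a 95% interval of 1.21 to 1.52. The difference exceeded the spread between replicates, which was 0.0054 on the log2 scale in siControl and 0.13 in siLOC730101.

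JUND is a short and GC-rich transcript, with 1929 bases of exon and 69.9% GC, and both properties went with the LFC across the genes. Among genes above 5 CPM, the median LFC was 0.16 for 725 genes of 1000 to 2000 bases and -0.046 for 1918 genes longer than 10000 bases. It was 0.093 for 340 genes with 65% to 70% GC and -0.027 for 2092 genes with up to 40% GC. With the trend on exon length removed in each library, the LFC of JUND was 0.38 (adjusted p = 0.0133, edgeR). With the trends on length and GC content both removed, it was 0.29 (SE 0.066) and its adjusted p of 0.0699 in edgeR no longer passed the threshold. What produced these trends was not tested.

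**Figure D3:**
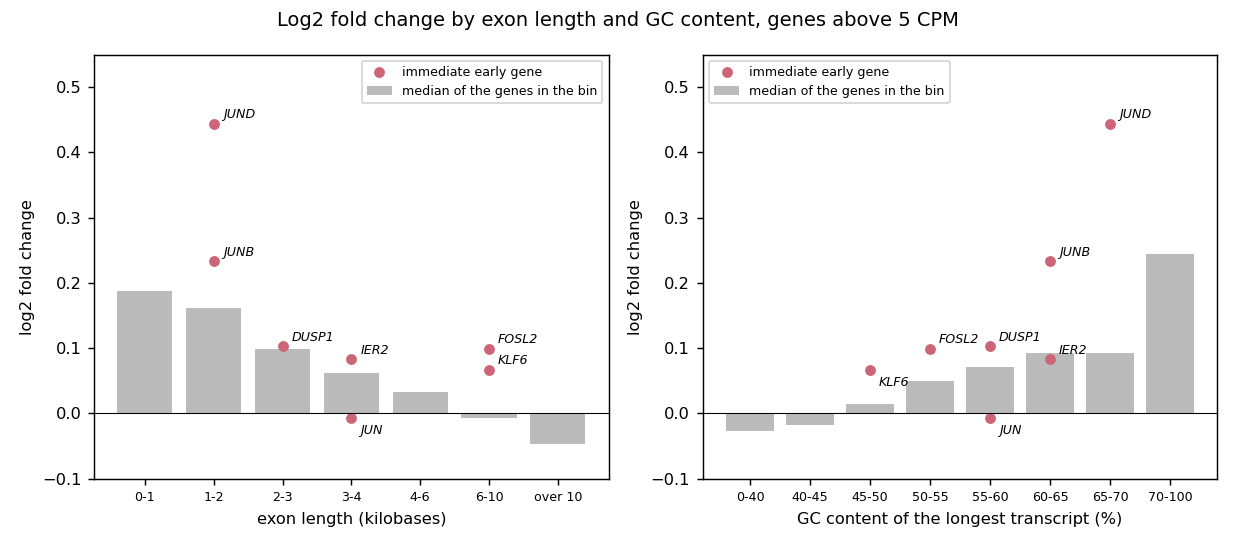
Median LFC (grey bars) of genes above 5 CPM in bins of exon length (left, kilobases) and GC content of the longest transcript (right, percent), with the 7 immediate early genes above 5 CPM as points. The medians fall from 0.19 in the shortest bin to -0.046 in the longest and rise with GC content from -0.027 to 0.24, and JUND lies above the median of its bin in both panels.

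The other JUN genes did not pass the test. JUN (chr1:58776845-58784048, minus strand), whose protein is a target of the JNK kinases, had a normalized CPM of 99.9 and 105.5 in siControl and 95.8 and 108.7 in siLOC730101. The groups overlapped, and the LFC was -0.0065 with a 95% interval of -0.19 to 0.18 (adjusted p = 0.992, edgeR). It was 0.036 without siControl replicate 2 and 0.091 without siLOC730101 replicate 1. JUNB (chr19:12791486-12793315, plus strand), which is induced with FOS and often weakens the activity of JUN, had a normalized CPM of 23.8 and 23.4 in siControl and 24.9 and 30.7 in siLOC730101.

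Both siLOC730101 libraries of JUNB lay above both siControl libraries, but replicate 2 lay well above replicate 1. Its LFC was 0.23 (SE 0.13, adjusted p = 0.543, edgeR), and it was 0.071 without siLOC730101 replicate 2. JUNB is as short as JUND, with 1830 bases of exon and 64.9% GC, and its LFC was 0.11 with the length and GC trends removed. HOOK2 covers 14.2% of its exon bases on the other strand. Reads there could not be assigned to either gene by a count without strand.

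The ratio of JUND to JUN does not depend on how the libraries were scaled. Per kilobase it was 3.20 and 3.02 in siControl and 4.32 and 4.17 in siLOC730101, without overlap. JUND made up 68.1% ± 0.546 (SD, n = 2) of the JUN family in siControl and 73.4% ± 0.898 (SD, n = 2) in siLOC730101. The share of JUN was 21.9% ± 0.716 (SD, n = 2) and 17.3% ± 0.223 (SD, n = 2). For each of these measures the two-sided exact permutation test gave p = 0.333, which is the smallest p that 2 against 2 libraries allow. JUN is longer than JUND, with 3624 bases of exon, and has less GC, at 56.1%, and the ratio was not recomputed with the length and GC trends removed.

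The FOS genes did not pass the test either, and the intervals of FOS and FOSB were wide. FOSL2 (chr2:28392448-28417317, plus strand) had a normalized CPM of 63.1 and 54.9 in siControl and 64.3 and 62.1 in siLOC730101, with overlap between the groups. Its LFC was 0.099 with a 95% interval of -0.10 to 0.30 (adjusted p = 0.784, edgeR). FOS (chr14:75278826-75282230, plus strand) had a normalized CPM of 0.259 and 0.171 in siControl and 0.535 and 0.211 in siLOC730101.

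The FOS value of siLOC730101 replicate 1 was the highest, and the other siLOC730101 library lay between the siControl libraries. The LFC of 0.79 had a 95% interval of -1.36 to 2.94 (adjusted p = 0.854, edgeR) and was -0.022 without siLOC730101 replicate 1. FOSB (chr19:45467995-45475179, plus strand), the close relative of FOS, had a normalized CPM of 1.33 and 1.03 in siControl and 1.92 and 0.790 in siLOC730101. The same library was highest, and the other siLOC730101 library was the lowest of the 4. Its LFC was 0.20 (95% interval -0.87 to 1.28, adjusted p = 0.938, edgeR) and -0.57 without siLOC730101 replicate 1.

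EGR1 (chr5:138465479-138469303, plus strand) had the lowest LFC of the 10 genes. Its normalized CPM was 1.41 and 1.22 in siControl and 1.02 and 1.21 in siLOC730101, so that both siLOC730101 libraries lay below both siControl libraries by a narrow margin. Its LFC was -0.23 with a 95% interval of -1.21 to 0.75 (adjusted p = 0.917, edgeR). The interval of EGR1, from 42 to 76 counts per library, spans a change in either direction.

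IER2, KLF6 and DUSP1 overlapped between the groups. IER2 (chr19:13150411-13154911, plus strand) had a normalized CPM of 16.9 and 14.7 in siControl and 15.7 and 17.8 in siLOC730101, with an LFC of 0.083 (95% interval -0.22 to 0.39, adjusted p = 0.903, edgeR). It was -0.0074 without siControl replicate 2 and -0.012 without siLOC730101 replicate 2. The level of IER2 is uncertain, because 52.2% of its 3079 exon bases are shared with 2 genes on the other strand. KLF6 (chr10:3775996-3785281, minus strand) had a normalized CPM of 26.0 and 27.5 in siControl and 27.3 and 28.7 in siLOC730101.

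For KLF6 the LFC was 0.067 (95% interval -0.17 to 0.31, adjusted p = 0.899, edgeR). DUSP1 (chr5:172768096-172771195, minus strand) had a normalized CPM of 28.6 and 31.4 in siControl and 30.2 and 34.2 in siLOC730101. For DUSP1 it was 0.10 (95% interval -0.14 to 0.35, adjusted p = 0.816, edgeR). For the 6 genes that did not pass and had more than 500 counts per library (JUN, JUNB, FOSL2, IER2, KLF6 and DUSP1), the intervals reached from -0.22 at the lowest to 0.50 at the highest.

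**Figure D4:**
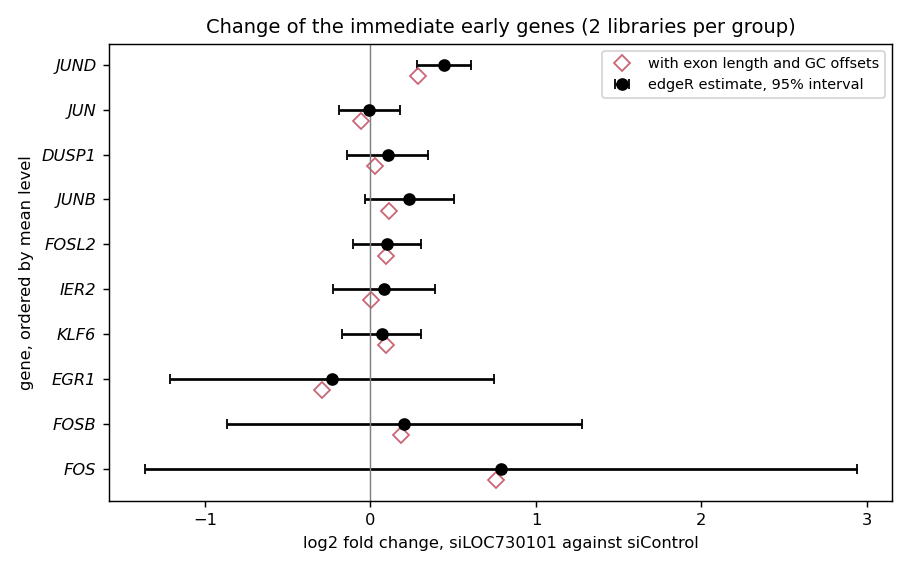
Log2 fold change (LFC) of the 10 genes after siLOC730101, with black points for the edgeR estimate, bars for its 95% interval (2 libraries per group) and open diamonds for the estimate with exon length and GC trends removed. The interval of JUND, at 0.44, stays above 0, the other 9 intervals cross 0, and the diamond of JUND lies at 0.29.

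In 7 of the 10 genes the groups overlapped, in 2 (JUND and JUNB) both siLOC730101 libraries lay above both siControl libraries, and in EGR1 both lay below. Over all genes tested, the groups did not overlap in 41.7%, and the siLOC730101 libraries lay above in 21.3%. The 10 genes did not move as a unit between replicates. Replicate 2 was higher than replicate 1 in 3 of the 10 genes in siControl and in 7 of the 10 genes in siLOC730101. The median difference between replicates of the 10 genes was 0.16 on the log2 scale in siControl and 0.18 in siLOC730101, and it was 0.17 and 0.20 over all genes tested. The LFC of JUND was the only one of the 10 that exceeded the replicate difference in both groups. The share of all genes tested that did so was not counted, so this alone does not set JUND apart.

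The mean log2 level of the 10 genes, centred over the 4 libraries, was -0.013 and -0.13 in siControl and 0.13 and 0.014 in siLOC730101. FOS and FOSB, the genes with the lowest levels, weigh as much in this mean as the others and were both highest in siLOC730101 replicate 1. Among 11257 other genes above 5 CPM, EIF2B4, AMPD2 and TEX9 had the nearest pattern, with root mean square differences of 0.011, 0.012 and 0.014 on the log2 scale over the 4 libraries. A total of 353 genes lay within 0.05, so that 4 libraries single out no gene by its pattern.

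Most further immediate early genes were detected, and none passed the test after siLOC730101. In a list of 46 such genes, 41 were tested and 0 had an adjusted p under 0.05 in edgeR or in DESeq2. An unadjusted p under 0.05 in edgeR was found for 1 gene, against 10.8% of all genes tested. Of the 41 genes, 30 had an LFC above 0, against 49.6% of all genes tested, and the median was 0.078. Exon length and GC content, which went with the LFC across the genes, were not accounted for in this comparison. The groups did not overlap in 15 of them, with siLOC730101 higher in 11, against 41.7% and 21.3% of all genes. CEBPB, a bZIP factor of the acute phase response, had a normalized CPM of 109.5 and 112.6 in siControl and 125.1 and 145.3 in siLOC730101, with an LFC of 0.28 (adjusted p = 0.192, edgeR). Its adjusted p in edgeR was 2.18e-04 with siLOC730101 replicate 1 left out but 0.683, at an LFC of 0.17, with replicate 2 left out. Leaving out siControl replicate 1 or replicate 2 gave 0.437 and 0.432. IER5, a relative of IER2, had an LFC of -0.35 (adjusted p = 0.522, edgeR), and ID1, an inhibitor of helix-loop-helix factors, one of 0.35 (adjusted p = 0.575, edgeR). Only CCN2, a secreted matrix protein, had 3 counts or fewer in every library, and it had 0 in all 4. EGR2, IER3, SOCS3 and EGR4 were also too low to be tested. In siControl replicates 1 and 2 and then siLOC730101 replicates 1 and 2, EGR2 had 10, 0, 0 and 0 counts. In the same order IER3 had 12, 0, 0 and 0, SOCS3 had 0, 0, 8 and 0, and EGR4 had 8, 4, 4 and 0.

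The kinases and transcription factors upstream showed 0 genes with an adjusted p under 0.05 in edgeR. In the ERK, JNK and p38 cascade, 37 of 38 genes were tested, 5 had an unadjusted p under 0.05 (2 higher, 3 lower; 10.8% over all genes tested), and the median LFC was 0.037. MAP2K4, a kinase that activates JNK, came nearest. Its normalized CPM was 72.2 and 67.3 in siControl and 52.9 and 52.7 in siLOC730101, without overlap. The LFC was -0.40 (SE 0.090, adjusted p = 0.0784, edgeR). DESeq2 gave an adjusted p of 0.00824, the one call among the 36 genes it adjusted in that list (3.12% over all genes). The edgeR value passed when either siLOC730101 library was left out, with adjusted p = 0.00681 when replicate 1 was removed and 0.0296 when replicate 2 was. It did not pass without siControl replicate 1 (adjusted p = 0.274, edgeR) or without siControl replicate 2 (adjusted p = 0.102, edgeR).

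RPS6KA5, a kinase that acts on CREB and histone H3, had an LFC of -0.33 (adjusted p = 0.375, edgeR), and HRAS, the small GTPase upstream of ERK, one of 0.26 (adjusted p = 0.326, edgeR). Among 17 transcription factors of immediate early promoters, all were tested, 5 had an unadjusted p under 0.05 (1 higher, 4 lower), where all genes tested gave 10.8%, the median LFC was -0.067, and DESeq2 called 0. The SRF partners ELK3 and ELK1 had LFCs of -0.38 (adjusted p = 0.272, edgeR) and 0.26 (adjusted p = 0.315, edgeR). CRTC1, a coactivator of CREB, had one of -0.27 (adjusted p = 0.274, edgeR).

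AP-1 partners, inhibitors and targets were examined in the same way, and 0 genes in these lists had an adjusted p under 0.05 in edgeR. Of 15 possible AP-1 dimer partners, 13 were tested, and their median LFC was 0.10. Against 10.8% over all genes tested, 1 of the 13 had an unadjusted p under 0.05. This was MAF, a large bZIP factor, with a normalized CPM of 139.4 and 123.0 in siControl and 162.6 and 157.2 in siLOC730101. Its LFC was 0.28 (adjusted p = 0.170, edgeR). DESeq2 called it with an adjusted p of 0.0406, the one call among the 9 genes it adjusted in that list (3.12% over all genes). In edgeR it also passed with either siLOC730101 library removed (adjusted p = 0.0266 when this was replicate 1 and 0.0362 when it was replicate 2). It did not pass without siControl replicate 1 (adjusted p = 0.153, edgeR) or without siControl replicate 2, where its LFC was 0.20 (adjusted p = 0.761, edgeR). The repressor JDP2 had an LFC of 0.17 (adjusted p = 0.754, edgeR) and the stress-induced ATF3 one of 0.14 (adjusted p = 0.635, edgeR).

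All 18 MAP kinase phosphatases and feedback inhibitors were tested, and DESeq2 called 0. An unadjusted p under 0.05 was found for 1 gene (10.8% over all genes tested). That gene was DUSP5, a nuclear phosphatase of ERK, with an LFC of 0.47 (adjusted p = 0.274, edgeR). DUSP2 had one of 0.34 (adjusted p = 0.505, edgeR) and NAB1, a corepressor of EGR proteins, one of -0.32 (adjusted p = 0.560, edgeR). The median of the list was 0.037.

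Of 28 genes known as AP-1 or EGR1 targets in other cells, 13 were tested and 10 had 3 counts or fewer in every library. In 7 of these 10 genes all 4 libraries had 0 counts. Of the 13 genes, 2 had an unadjusted p under 0.05 (1 higher, 1 lower, 10.8% over all genes tested). DESeq2 called 0, and the median LFC was -0.063. The higher gene was HMOX1 and the lower was MMP13. Normalized CPM of MMP13 was 3.07 and 3.42 in siControl and 1.61 and 1.69 in siLOC730101. The LFC of MMP13 was -0.98 (adjusted p = 0.235, edgeR). Above 5 CPM, HMOX1, FN1 and THBS1 had the largest LFCs of the list in size. HMOX1, which degrades heme, had an LFC of 0.45 (adjusted p = 0.191, edgeR), FN1, the matrix protein fibronectin, one of -0.13 (adjusted p = 0.548, edgeR), and THBS1, the secreted glycoprotein thrombospondin, one of -0.074 (adjusted p = 0.928, edgeR). FN1 had an LFC of -0.21 and passed the test (adjusted p = 0.0229, edgeR) with siLOC730101 replicate 1 left out, and had an LFC of -0.058 (adjusted p = 0.937, edgeR) with replicate 2 left out. Without siControl replicate 1 its LFC was -0.068, without siControl replicate 2 it was -0.19, and neither passed. The 9 proteins that bind AU-rich elements, through which many immediate early mRNAs are degraded, were all tested. None had an unadjusted p under 0.05 in edgeR and DESeq2 called 0, with a median LFC of 0.013. TIA1 (-0.11, adjusted p = 0.726, edgeR), KHSRP (0.092, adjusted p = 0.709, edgeR) and ZFP36L2 (0.047, adjusted p = 0.917, edgeR) had the largest LFCs of that list above 5 CPM in size.

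**Figure D5:**
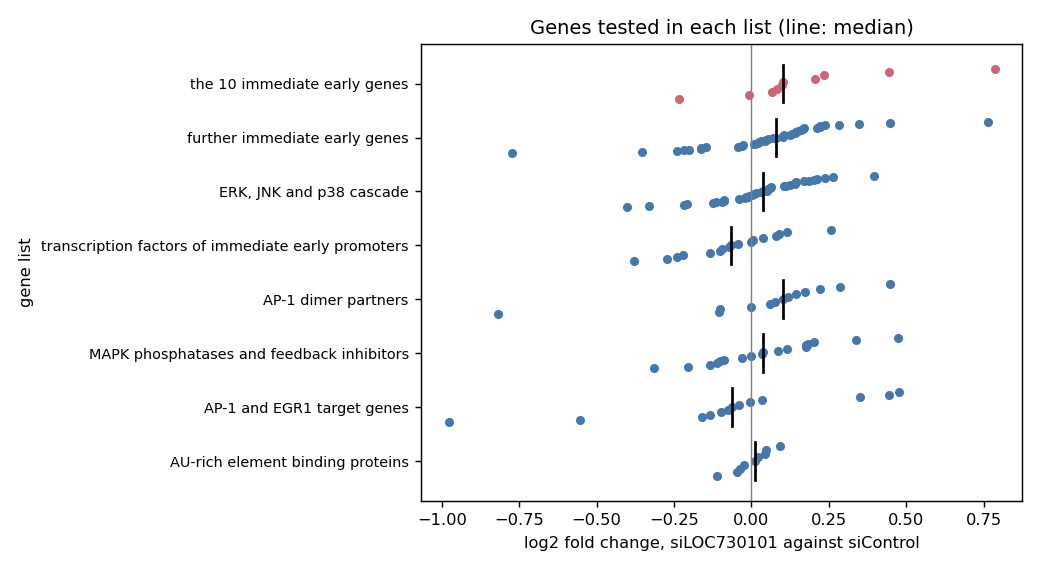
Log2 fold change (LFC) after siLOC730101 of each gene tested in the 8 lists, with a vertical line at the median. The medians lie between -0.067 and 0.10, and JUND at 0.44 is the one point with an adjusted p under 0.05.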

How the data were processed

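Per the file headers, the authors counted reads on exons with featureCounts 2.0.1 on hg38 with gencode 41, without a paired-end, strand or multi-overlap option, and deposited raw counts for 4 libraries. The methods name STAR on hg19, and the processing notes list BWA. Weakly expressed genes had mostly even counts (66.0% to 70.1% of values from 1 to 20), as when both mates of a pair are counted. Whether the replicates were separate cultures is not stated, and p-values measure the spread between these libraries.

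Counts were filtered with filterByExpr, scaled by TMM and fitted with glmQLFit in edgeR 4.0.16 (R 4.3.3) with the group as the only term; 95% intervals come from its standard error. DESeq2 1.42.0, the tool of the study, was an alternative. The offsets for exon length and GC content were added after seeing the data. Other scalings, filters and fits, a replicate block and leaving out each library were also tried. Exact tests used scipy 1.17.1. GC content was taken from the longest gencode transcript on GRCh37, matched by symbol for 98.6% of genes tested. The fit was tested on simulated counts with 200 known changes among all genes tested. It recovered 107 of them (53.5%) at 2-fold with 13 false calls. At 1.5-fold it recovered 90 (45.0%) with 2 false calls.

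The 10 genes and the gene lists were chosen with earlier results of these data known. Named are the 10 genes, LOC730101, from each list the genes past the threshold (up to 4) or otherwise the 3 with the largest log2 fold change in size above 5 CPM, and the 3 nearest patterns. CCN2, EGR2, EGR4, IER3, SOCS3 and MMP13 were named after their values were seen. Some genes of the lists are not reported here and were left out of the list counts.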

Additional observations from a re-analysis of the deposited data

How the results depend on the processing

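JUND kept its direction under all 16 alternatives, with log2 fold changes of 0.29 to 0.52, and its call under 15. The exception was the removal of trends with exon length and GC content, chosen after seeing the data, which left 0 of the 10 genes past the threshold. The median of the 10 genes stayed between 0.049 and 0.20. It covered 9 genes with at least 50 counts on average and with halved counts, where FOS did not pass the filter. Leaving out 1 library at a time, with the lone library assumed to vary like the other group, gave ranges. FOS ranged from -0.022 to 1.30, FOSB from -0.57 to 0.70, JUN from -0.10 to 0.091 and IER2 from -0.012 to 0.19, and with their direction kept DUSP1 from 0.0080 to 0.20, FOSL2 from 0.0061 to 0.20, KLF6 from 0.026 to 0.11, JUNB from 0.071 to 0.39 and EGR1 from -0.36 to -0.11. Of the list genes, DUSP2 ranged from 0.11 to 0.60, ID1 from 0.13 to 0.60, RPS6KA5 from -0.48 to -0.17, ATF3 from 0.032 to 0.25, JDP2 from 0.061 to 0.30, NAB1 from -0.42 to -0.20, THBS1 from -0.14 to -0.0061, TIA1 from -0.19 to -0.031 and KHSRP from 0.051 to 0.14. ZFP36L2 ranged from -0.028 to 0.13 and turned without siControl replicate 1. The cause was not tested. The median level per kilobase was 6.91, or 7.54 with longest transcripts.

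Over all genes, 41 were higher and 14 lower. These counts were 324 and 113 with no filter beyond 1 count, 137 and 49 with at least 50 counts on average, 234 and 63 with DESeq2, 87 and 24 with the legacy method off, 113 and 35 with halved counts, 76 and 27 with length offsets and 67 and 24 with length and GC offsets. With library size only, 58 were higher and 35 lower. The counts ranged from 77 to 923 and from 26 to 272 without 1 library, and were highest without siLOC730101 replicate 1. With the replicate number as a block, 485 were higher and 167 lower, CEBPB, MAP2K4 and MAF passed the threshold, and JUND had an adjusted p of 8.89e-07 in edgeR. Deviations of same-numbered libraries correlated at -8.96e-04 across genes, so that no shared deviation was seen by this measure. It cannot settle whether same-numbered libraries shared a culture or batch, which is not stated. FOS, FOSB and EGR1 had 8 to 79 counts per library, and with halved counts the SE of FOSB was 0.52 against 0.50. Halving divides every count alike and adds no sampling noise, so it cannot separate depth from replicate spread.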
